A study of Saccharomyces cerevisiae with 6 samples.

Results

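The subunits of the 3 nuclear RNA polymerases of *Saccharomyces cerevisiae* are described here by the level of their mRNAs in meiotic prophase. The genes were chosen by name from a list of all 31 subunit genes, and 28 of the 31 had a row among the 5297 genes of the deposited table. *RPA12*, *RPB9* and *RPC10* had none under either their gene name or their systematic name, and their levels were not analysed here. Each genotype, *SPO11* and *spo11-YF*, was sampled in 3 cultures, all collected 4 h after transfer to the acetate medium in which yeast starves and enters meiosis. Spo11 is the protein that cuts chromosomes to start recombination, and the *spo11-YF* allele, which carries an HA tag and a *URA3* marker, has a phenylalanine in place of its catalytic tyrosine and makes no breaks. Both strains are SK1 diploids with *LYS2* inserted at *ho*. In both, *TRP1* replaces *NDT80*, whose product takes cells out of prophase, and *LEU2* replaces *PPH3*, which encodes a phosphatase that reverses checkpoint signalling. The genotypes also list a further *TRP1* for *spo11-YF*, and *SPO11* cells carry more copies of *LEU2*. Each genotype is represented by 1 strain, so that levels apply to cells with these deletions and not to unmodified cells.

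RNA polymerase I transcribes the large ribosomal RNA genes, RNA polymerase II transcribes messenger RNA genes, and RNA polymerase III makes transfer RNAs and the 5S ribosomal RNA. The enzymes are built on a common plan. A pair of large subunits forms the catalytic cleft, an alpha-like pair forms the platform on which the cleft is assembled, a small set of subunits is common to all of them, and a stalk protrudes near the RNA exit. By subunit composition, Pol I has 14 subunits, Pol II 12 and Pol III 17. Of the 31 genes, 7 belong to Pol I alone, 7 to Pol II alone, 10 to Pol III alone, 2 to both Pol I and Pol III, and 5 to all of them. Gene names do not follow this division. *RPC10*, *RPB5*, *RPB8*, *RPB10* and *RPO26* encode common subunits, whereas *RPC40* and *RPC19* are shared by Pol I and Pol III.

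The value of each gene is the authors' mean normalized count over all 6 libraries. A gene therefore has 1 value covering both strains. It carries no replicate error, and neither a difference between *SPO11* and *spo11-YF* cells nor the spread between cultures is reported. Where 2 genes are set side by side, the count was divided by the coding length in kilobases of the S288C gene, and this quantity is the level per kilobase. Summed over all rows, the mean normalized counts came to 2759217 per library on the normalized scale. The median over the 5276 genes with a coding length was 165.4 per kilobase, with quartiles of 89.2 and 339.4. The label of the cells as meiotic was checked against marker genes. All 10 prophase genes that had a row, of 11 listed, lay above the upper quartile, with a median of 2514 per kilobase and the highest value, 7028, for *DMC1*, the meiotic strand exchange protein. *MER2* had no row. Of 10 genes that depend on Ndt80, 9 lay below the median of all genes, and their median was 74.1 per kilobase. Of 6 genes of haploid or mating cells, *MFA1*, *MFA2* and *AGA2* had no row, and the other 3 had a median of 39.1 per kilobase.

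Polymerase subunit mRNAs were of middling abundance in these cells. The 28 genes took up 0.259% of the mean normalized counts of the table. Their median level was 137.5 per kilobase, 0.83 times that of all genes, and 10 lay above the median of all genes and 18 below it. The ratio to all genes was 0.59 without division by length and 0.69 with geometric means. Only *RPO21* and *RPC53* lay above the upper quartile of all genes, and 7 subunits lay below the lower quartile. The levels spanned 12.6-fold, from 33.3 per kilobase for *RPC25* to 420.9 for *RPO21*. The low end rests on few counts, with a mean normalized count of 21.2 for *RPC25*. No replicate spread could be computed for neighbours in this order, so that ranks between genes of similar level are not resolved.

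**Figure D1:**
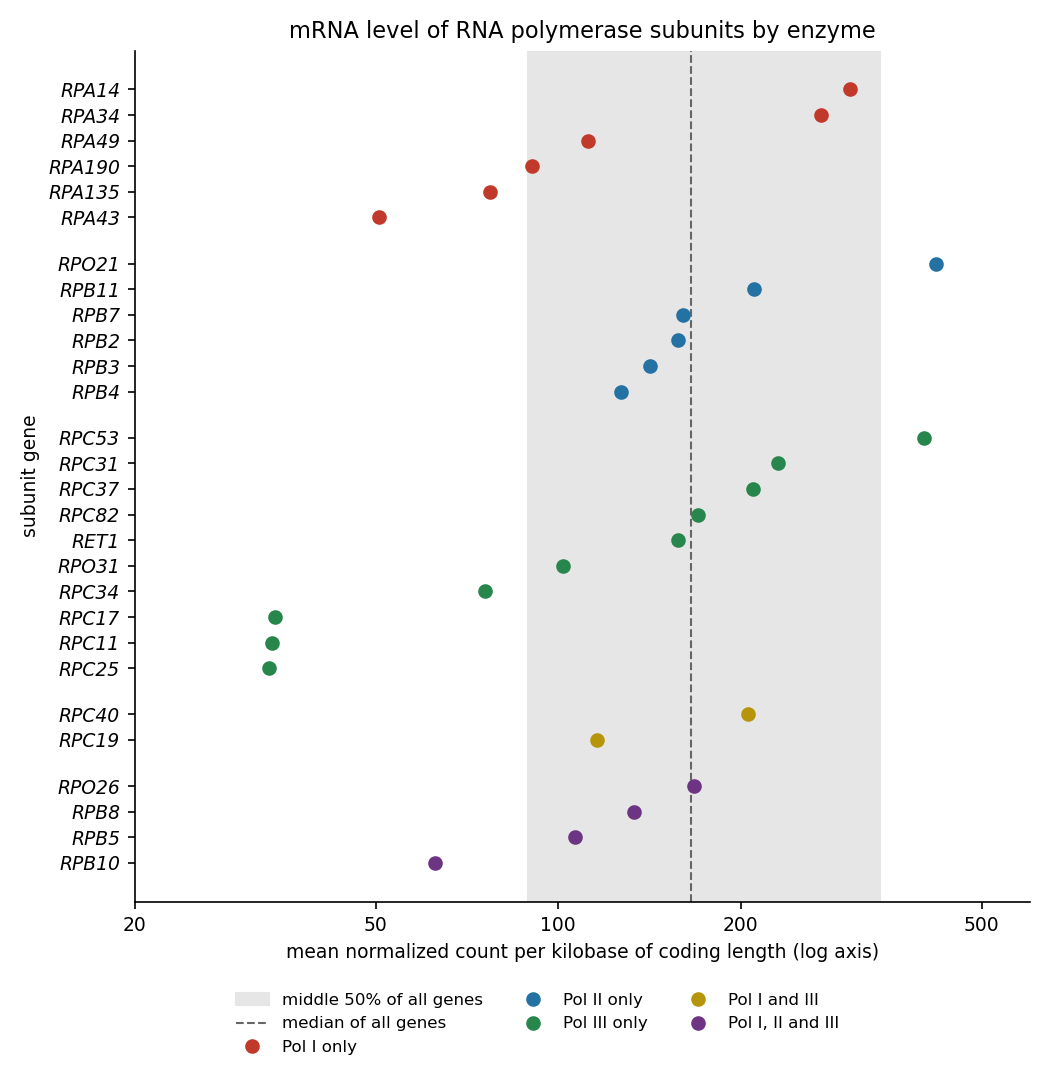
Authors' mean normalized count per kilobase of coding length (log axis) of the 28 subunit genes with a row, 1 point per gene, grouped by the enzymes that contain the subunit. The dashed line is the median of all genes (165.4) and the grey band their middle 50%; *RPO21* and *RPC53* lie above the band, while *RPC17*, *RPC11* and *RPC25* lie farthest below it.

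Per kilobase, the genes of Pol II alone were close to the level of a typical gene. The 6 genes of Pol II alone with a row had a median of 159.0 per kilobase, 0.96 times that of all genes, and none lay below the lower quartile. The 6 genes of Pol I alone with a row had a median of 101.1 per kilobase (0.61 times), and the 10 genes of Pol III alone had 129.6 (0.78 times). Pol III genes covered the widest range, 12.0-fold from *RPC25* to *RPC53*, against 5.99-fold among Pol I genes and 3.32-fold among Pol II genes. The lists are not alike, however. Pol III includes its zinc-ribbon gene *RPC11*, at 33.6 per kilobase, while the counterparts *RPA12* and *RPB9* have no row. With *RPC11* left out, the middle gene of Pol III alone is *RET1*, at 157.5 per kilobase (0.95 times), close to the median of Pol II alone. The gap between the medians of Pol II and Pol III alone thus rests on this 1 gene of few counts. The 12.0-fold range is unchanged, as *RPC25* and *RPC53* remain. Other ways of matching the genes were not tested. The 2 genes shared by Pol I and Pol III had a median of 160.7 per kilobase, and the 4 common genes with a row had 120.1. Of these 4 genes, 3 lay below the median of all genes. With shared and common genes counted in each enzyme, the medians were 0.69 (Pol I), 0.90 (Pol II) and 0.75 (Pol III) times that of all genes. The order of the enzymes depended on the division by length. Without it, the medians were 0.50 times that of all genes for Pol II alone, 0.75 for Pol I alone, 0.80 for Pol III alone, 0.58 for the genes shared by Pol I and Pol III, and 0.29 for the common genes.

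The largest subunits, which with the second-largest subunits form the active centre, had unequal levels. *RPO21* (YDL140C) encodes the largest subunit of Pol II, whose repeated carboxy-terminal tail recruits factors for processing of the transcript. Its mean normalized count was 2188, which placed it above 5104 of the 5297 rows, and its level per kilobase of 420.9 was at percentile 80.6 of all genes. *RPO31* (YOR116C), its counterpart in Pol III, had a mean normalized count of 445.4 and a level of 101.7 per kilobase. *RPA190* (YOR341W), the counterpart in Pol I, had a mean normalized count of 451.1 and a level of 90.4 per kilobase. The level of *RPO21* was 4.66 times that of *RPA190* and 4.14 times that of *RPO31*, whereas *RPO31* and *RPA190* differed by 1.13 times.

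The second-largest subunits did not show this gap. *RPB2* (YOR151C) of Pol II had a mean normalized count of 578.2, and *RET1* (YOR207C) of Pol III had 542.8. Per kilobase both were at 157.5, a ratio of 1.00. *RPA135* (YPR010C) of Pol I had a mean normalized count of 278.3 and a level of 77.1 per kilobase, and both others were 2.04 times as high. Within each enzyme the cleft is built from 1 copy of each large subunit. The levels of these partners were 90.4 and 77.1 per kilobase in Pol I, 420.9 and 157.5 in Pol II, and 101.7 and 157.5 in Pol III.

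**Figure D2:**
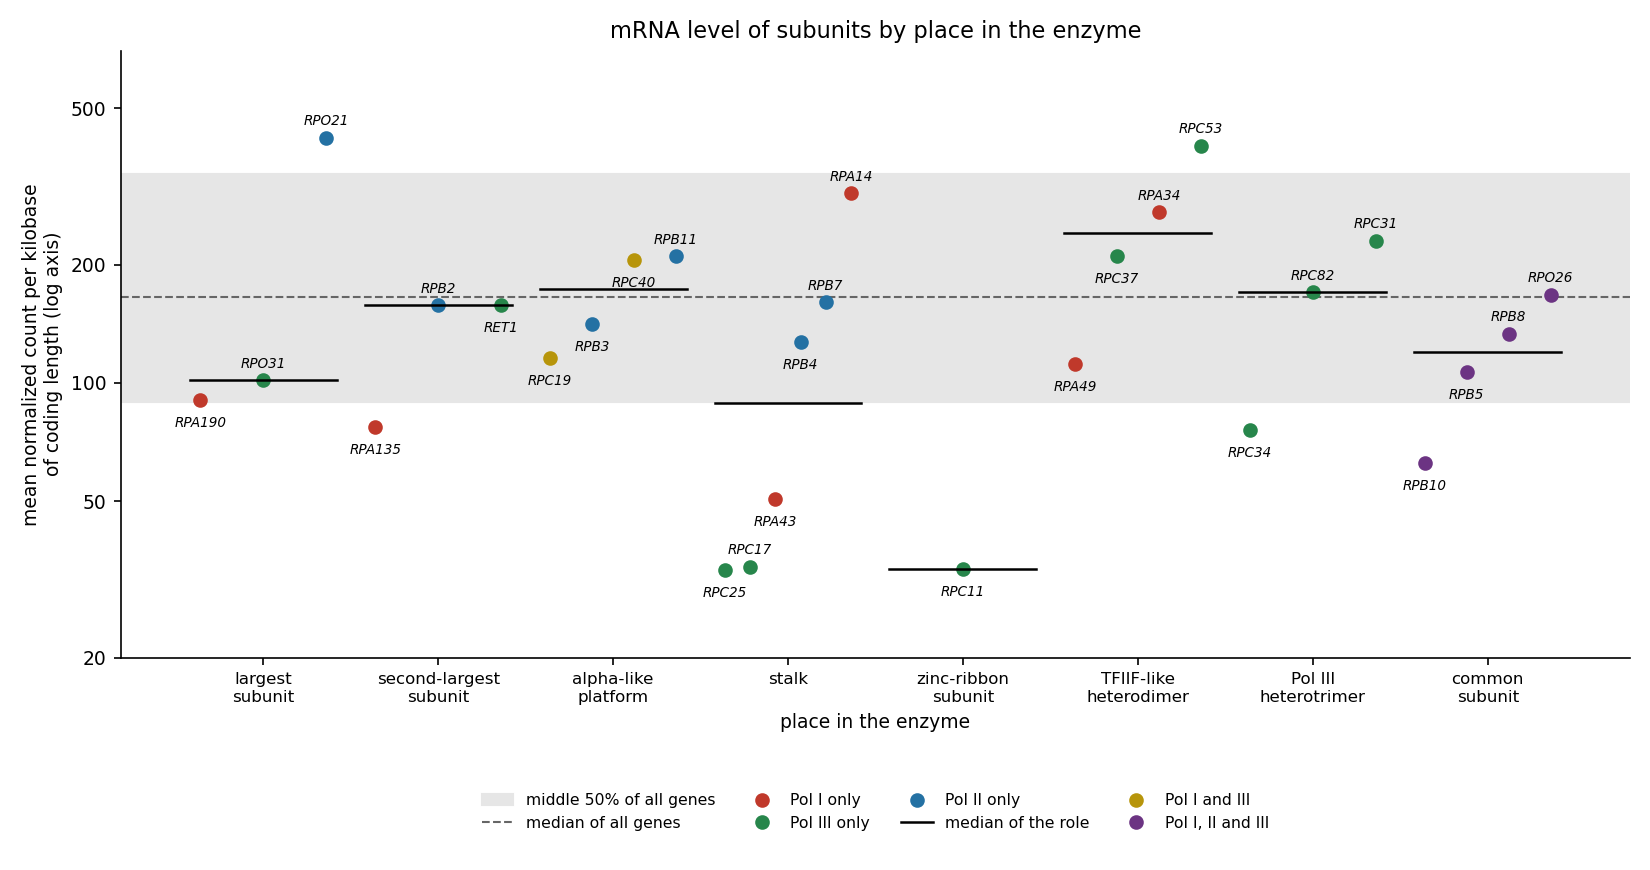
Authors' mean normalized count per kilobase of coding length (log axis) of each subunit gene with a row, grouped by its place in the enzyme and coloured by the enzymes that contain it; black bars are the medians of each place. The grey band is the middle 50% of all genes and the dashed line their median; *RPO21* stands above its counterparts *RPO31* and *RPA190*, and the stalk genes range from 33.3 for *RPC25* to 303.5 for *RPA14*.

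The genes of the alpha-like platform spanned 1.82-fold per kilobase. The platform is a heterodimer of Rpb3 and Rpb11 in Pol II and of Rpc40 and Rpc19 in Pol I and Pol III. *RPB11* had a mean normalized count of 75.7 and a level of 210.3 per kilobase, and its partner *RPB3* had 135.1 and 141.6 per kilobase. *RPC40* had a mean normalized count of 206.8 and a level of 205.8 per kilobase, and its partner *RPC19* had 49.3 and 115.7 per kilobase. The partners thus differed by 1.48 times in Pol II and 1.78 times in the shared dimer.

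The stalk, the place with most genes (6), spanned 9.10-fold per kilobase, the widest range of any place in the enzyme on that scale. It is a heterodimer too, formed by Rpa14 and Rpa43 in Pol I, Rpb4 and Rpb7 in Pol II, and Rpc17 and Rpc25 in Pol III. Its Pol I form contacts the initiation factor Rrn3, its Pol II form can leave the core enzyme, and its Pol III form takes part in initiation. *RPA14* (YDR156W) had the highest level, 303.5 per kilobase with a mean normalized count of 124.7, which was 5.99 times that of its partner *RPA43* (YOR340C) at 50.7 per kilobase and 49.6 counts. An open reading frame without a row, YDR157W, overlaps *RPA14* on the same strand in the S288C annotation. Their coding sequences share no stretch of 31 bases, and the part of YDR157W reads in this value was not tested. *RPB7* and *RPB4* were close, at 160.6 and 126.9 per kilobase, a ratio of 1.27. *RPC17* (YJL011C) and *RPC25* (YKL144C) were both low and nearly equal, at 34.1 and 33.3 per kilobase, with mean normalized counts of 16.4 and 21.2. They lay at percentiles 4.30 and 4.08 of all genes per kilobase. By mean normalized count, only 100 and 155 of the 5297 rows lay below them, and the lowest value was 8.21. The low end of the stalk range thus rests on few counts.

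*RPA43* and *RPA190* lie next to each other in the genome and are transcribed in opposite directions from the region between them, the sole neighbours among the 31 genes. The level of *RPA190* was 1.78 times that of *RPA43*.

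The heterodimers that resemble the Pol II factor TFIIF had a median of 240.9 per kilobase, 1.46 times that of all genes, the highest of any place on that scale. Without division by length, their median was 0.84 times that of all genes, below the 2.05 of the largest and the 2.47 of the second-largest subunits. In Pol I they consist of Rpa49 and Rpa34, and in Pol III of Rpc53 and Rpc37, which act in initiation, elongation and termination. *RPC53* (YDL150W) had a mean normalized count of 507.4 and a level of 400.8 per kilobase, at percentile 79.5, and *RPC37* had 177.6 and 209.9 per kilobase, so that these partners differed by 1.91 times. *RPA34* had a mean normalized count of 190.1 and a level of 271.9 per kilobase, 2.43 times that of *RPA49*, which had 139.2 and 111.8 per kilobase. Only *RPA49* lay below the median of all genes.

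Pol III has an additional heterotrimer that opens the promoter together with the initiation factor TFIIIB. *RPC31* had a mean normalized count of 173.3 and a level of 230.2 per kilobase. *RPC82* had 333.8 counts and 170.1 per kilobase, and *RPC34*, which contacts TFIIIB, had 72.1 counts and 75.8 per kilobase. The highest and the lowest of these genes differed by 3.04 times. Within Pol III, *RPC53*, *RPC31*, *RPC37* and *RPC82* lay above the median of all genes, while *RPC17*, *RPC11* and *RPC25* had the lowest levels of all 28 subunits.

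*RPC11* (YDR045C) encodes the zinc-ribbon subunit through which Pol III cleaves its own transcript and re-initiates. It had a mean normalized count of 11.1, with 29 of the 5297 rows below it and a lowest value in the table of 8.21, and a level of 33.6 per kilobase. The counterparts *RPA12* and *RPB9* are the genes without a row, so that no comparison across the enzymes could be made for this place.

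Among the common subunits, *RPO26* had a mean normalized count of 78.0 and a level of 167.8 per kilobase, *RPB8* had 58.4 and 133.4 per kilobase, and *RPB5*, the jaw subunit that grips DNA ahead of the cleft, had 68.9 and 106.7 per kilobase. *RPB10*, a small zinc-binding protein of 70 residues, had 13.1 counts, with 50 of the 5297 rows below it, and 62.5 per kilobase. The level of *RPO26* was 2.68 times as high. *RPC10*, of the same length as *RPB10*, had no row.

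Several subunits are small proteins. Of the 31 genes, 12 have a coding length under 600 bases, and all 3 genes without a row are among these 12. Why these 3 genes have no row is not known and was not tested. Of all protein-coding genes of the S288C annotation, 37.8% of those under 600 bases had no row, against 5.70% of the longer ones. Among genes in the table, the median level of the short class lay between those of the longer classes. It was 174.0 per kilobase under 600 bases, 181.1 from 600 to 1500 bases and 150.1 above 1500 bases. Because the short class lacks a larger share of its genes, whose levels are not known, these medians are not fully comparable. Across the 28 subunits the Spearman correlation of level per kilobase with coding length was 0.15, and across all 5276 genes it was -0.08. Length enters the level itself, and genes are not independent replicates. The subunit median was 0.77 times that of its class for the 9 short subunits, 0.74 times for the 12 of middle length and 1.05 times for the 7 long ones. The range within the middle class alone was 12.0-fold. When 150 bases were taken off each coding length, as an effective length would, the median of the common subunits went from 0.73 to 1.07 times that of all genes.

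**Figure D3:**
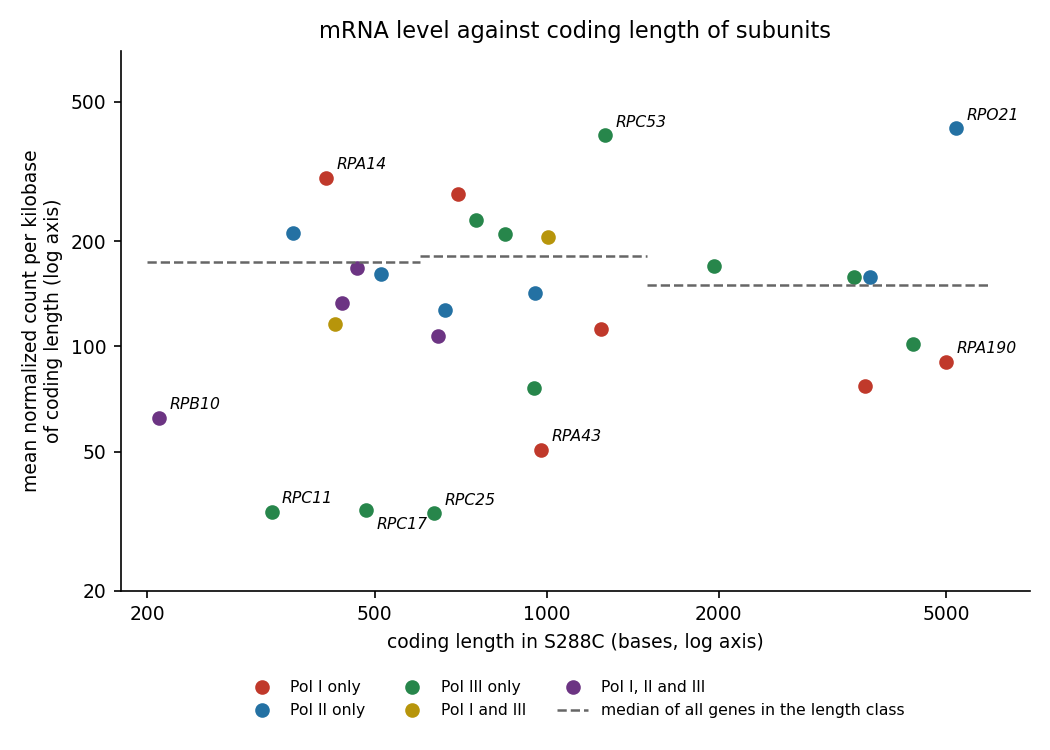
Authors' mean normalized count per kilobase of coding length against coding length in bases (both log axes) for the 28 subunit genes, coloured by enzyme. Dashed lines are the medians of all genes in the 3 length classes (174.0, 181.1 and 150.1); subunits lie on both sides of the line in every class.

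Factors that work with the polymerases were described on the same scale. The 12 general and elongation factors of Pol II had a median of 252.0 per kilobase, 1.52 times that of all genes, and 10 of them lay above the median of all genes. *TFG2*, a subunit of TFIIF, was the highest at 523.2 per kilobase, and *SPT4*, a small elongation factor, the lowest at 66.6. The 9 Pol III factors had a median of 114.6 per kilobase (0.69 times), and 3 of them lay above the median of all genes. The highest was *MAF1*, the repressor that shuts down Pol III in poor nutrients, at 396.6 per kilobase, close to the 400.8 of *RPC53*. The lowest was *TFC3*, a DNA-binding subunit of TFIIIC, at 75.5. The 9 Pol I factors had a median of 154.7 per kilobase (0.94 times), with 3 above the median of all genes. *RRN11* of core factor reached 212.7 per kilobase, and *UAF30* of the upstream activation factor had 37.6. The 8 assembly and import factors had a median of 175.0 per kilobase (1.06 times), from 69.8 for *RTP1* to 484.5 for *IWR1*, which accompanies assembled Pol II into the nucleus, and 4 of them lay above the median of all genes. As these lists each hold 1 value per gene and no replicate spread, no test of a difference between them and the subunits was made. Without division by length, the medians of the Pol II, Pol III and Pol I factors were 1.22, 1.19 and 0.60 times that of all genes, so that the place of the Pol III factors depended on that step.

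**Figure D4:**
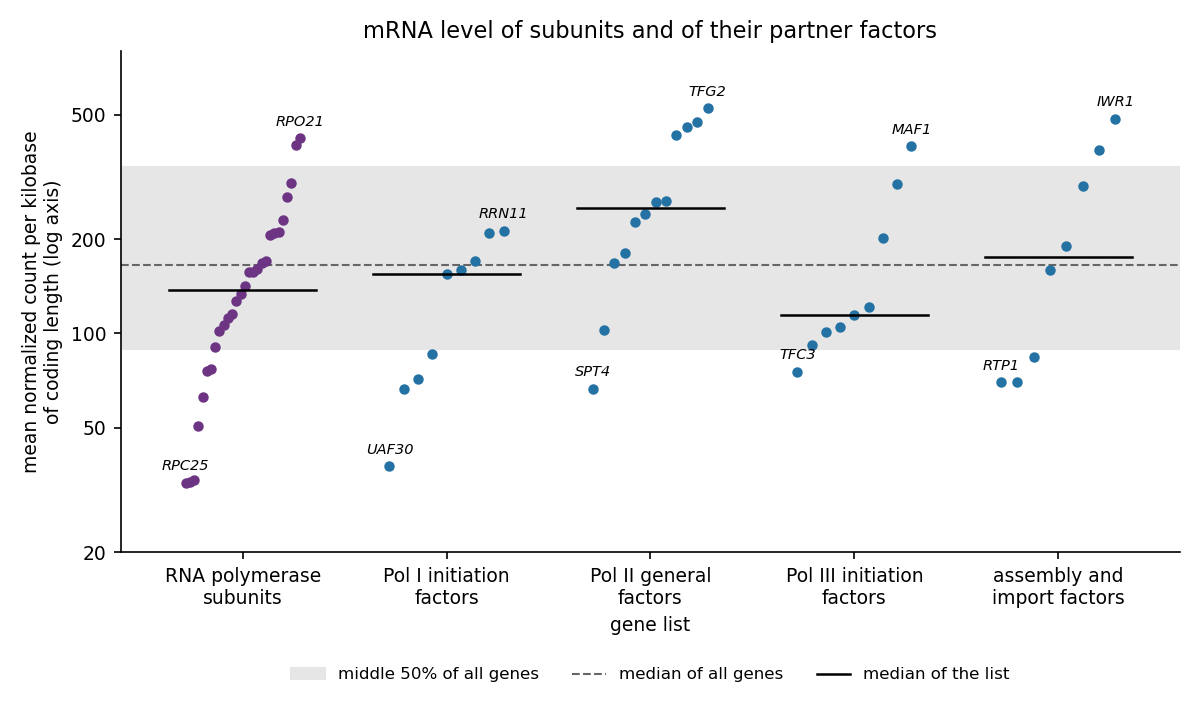
Authors' mean normalized count per kilobase of coding length (log axis) of the 28 subunits and of 4 lists of partner factors, 1 point per gene, with the highest and lowest gene of each list named and black bars at the medians. The dashed line is the median of all genes and the grey band their middle 50%; on this scale the Pol II factors have the highest median (252.0) and the Pol III factors the lowest (114.6), but without division by length the Pol III factors lie above the median of all genes.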

How the data were processed

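mRNA was sequenced from 3 *SPO11* and 3 *spo11-YF* cultures, grouped by genotype label. Per the study's methods, the authors made strand-specific poly(A) libraries, ran the nf-core pipeline against SK1, and passed the salmon gene counts through ComBat-Seq for batch correction and then to DESeq2. Trim Galore and STAR are named in the submitters' processing notes, and versions are not given in the sources used here. The signal column of the authors' deposited table, the mean normalized count over all libraries, was the only measurement used. Being a mean after batch adjustment, it gives no depth per library, counting interval or replicate error. The remaining value columns hold the authors' own comparison of the strains (log2 fold change, its standard error, test statistic and p-values) and were not used, so that no test between the strains was made.

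The members and the lists of factors and markers were chosen with earlier results of these data known. All members are named, with the highest and lowest gene of each factor list. *DMC1*, YDR157W and the length classes were chosen after values were seen. Coding lengths, without the 3 bases of the stop codon, came from the RefSeq annotation of S288C (R64), where the systematic names of 5276 of 5297 rows were found. Because the authors used SK1, no coordinates or sequences are given, and lengths in SK1 may differ. None of the 31 coding sequences shared a stretch of 31 bases with another S288C gene. The calculation was run on simulated levels without counting noise or missing genes, which checks only its arithmetic. Alternatives were other lengths, no division by length, geometric means and a count minimum of 10. Software was Python 3.11.15 with scipy 1.17.1, pandas 2.3.3, numpy 2.4.6 and, for figures, matplotlib 3.10.9.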

Additional observations from a re-analysis of the deposited data

How the results depend on the processing

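No paired analysis was possible because each gene has 1 mean over all libraries. For the same reason tests between the strains and leaving out replicates were not run. The planned alignment of counterpart proteins was also not run, and no protein table was used. Each list's median was set against that of all genes, and a ratio counted as moved when it changed by more than 1.5 times. Without division by length, 12 of 18 ratios moved, as this setting favours long genes. They were 0.50 for Pol II alone, 0.58 for Pol I and III, 0.29 for the common subunits (counted both as an enzyme list and as a place), 2.05 for the largest and 2.47 for the second-largest subunits, 0.48 for the platform, 0.30 for the stalk, 0.050 for the zinc-ribbon subunit, 0.84 for the TFIIF-like heterodimers, 0.60 for Pol I factors and 1.19 for Pol III factors. With 150 bases taken off each length, the zinc-ribbon ratio was 0.31, and the common subunits, at 0.73 before, came to 1.07. The other 13 ratios moved by less than 1.5 times, as did all 14 with 150 bases added and all 14 with geometric means. Ratios that changed side of 1 numbered 7 without division by length, 5 with the shorter lengths, 2 with the longer ones and 3 with geometric means, and they included ratios well away from 1 (0.61 for the largest subunits, 1.46 for the TFIIF-like heterodimers, 0.69 for Pol III factors and 0.73 for the common subunits). For the lists that changed side, the side of 1 therefore depends on the length or the kind of average used. No setting changed the side for all subunits, Pol I alone, Pol III alone, the stalk or the zinc-ribbon subunit. The Pol I and Pol II factors, run only with and without division by length, also kept their side. The percentiles of *RPO21*, *RPC53* and *RPC11* stayed within 1.5 times when genes with a mean count under 10 were left out. This setting could hardly move them, because the lowest mean count was 8.21 and only 29 of the 5297 rows lay below *RPC11* at 11.1. It therefore says little about how stable these percentiles are.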
